A study of Mus musculus with 39 samples.

Results

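The cell cycle was followed through 38 genes that dividing cells switch on to copy their DNA and to divide, read across 39 arrays of mouse bone marrow. Genes were taken from a fixed list of symbols, each through a probe set whose platform annotation gave that symbol alone. Of the 38 genes 36 could be measured, out of 22180 genes on the array. The others were Ccnb1, which had no probe set of its own symbol, and Ccne2, whose probe set also carries Ints8. Of the 36, 21 act in mitosis or are general proliferation markers and 15 act in DNA replication or the entry into it.

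The study compared leukaemias that express AE9a, a truncated form of the AML1-ETO fusion protein of t(8;21) acute myeloid leukaemia. The microRNA miR-126 was added or knocked out in some of them. The 3 arms were AE9a alone, AE9a with added miR-126 (AE9a+miR-126), and AE9a in cells with miR-126 knocked out (miR-126KO+AE9a). Each arm was transplanted serially, and marrow was taken at passages 1, 2, 3 and 4 (P1 to P4) from 3 mice a passage, which gives 36 leukaemia arrays. The 3 normal controls (NC) came from passage 1 and carried none of these changes in their labels. In all 13 groups the cells were donor cells, sorted as CD45.1+ from the marrow of recipients at the end stage. No age, strain background, promoter or vector was named in the labels, and the donor behind each recipient was not given. The p-values therefore speak for the spread among these recipients alone. Ptprc, the gene for CD45, was between 9.31 and 11.68 on the log2 scale on all arrays.

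Proliferating cells make these genes in waves. Towards the start of S phase E2F factors raise the genes of the replication origin, of the MCM helicase that opens the DNA and of nucleotide supply. In resting cells and early G1 the DREAM complex, which holds MuvB with pocket proteins and E2F4, represses many of these genes. Later, in G2 and mitosis, MuvB joined to B-Myb and FoxM1 activates the mitotic kinases and the spindle and checkpoint genes, often through CHR elements, with CCAAT boxes bound by NF-Y. In marrow these genes are highest in dividing precursors and low in mature cells. In bulk samples such as these, fewer dividing cells and less RNA per dividing cell cannot be told apart.

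The microRNA that the study varied is printed first, since the arms are told apart by it in their labels. It is mmu-miR-126a-3p, from GRCm38.p6 chr2:26591402-26591423 (+ strand), with its seed, bases 2 to 8, in capitals.

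mmu-miR-126a-3p: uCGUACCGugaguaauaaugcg

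Promoters are shown for 5 genes because the members rose and fell together across arrays. They are the 160 bases before the annotated start, 5′ to 3′, from RefSeq on GRCm38.p6. Capitals mark 3 motifs, searched on both strands. The CHR element was searched as TTTGAA and, in a second spelling, as TTCGAA. The CCAAT box was searched by those letters, which read ATTGG on the other strand. The E2F site was searched as TTTGGCGC, TTTCGCGC, TTTCCCGC and TTTGCCGC. Where 2 matches touch they run together in capitals, as for the pair of E2F matches on opposite strands in Mcm6. Ccnb2 encodes a mitotic cyclin and lies at chr9:70421555-70421714 (- strand). Cdk1, the kinase that cyclins of the B type switch on, lies at chr10:69352913-69353072 (- strand). Cdc20, the activator of the anaphase-promoting complex, lies at chr4:118437344-118437503 (- strand). Mcm6, a subunit of the replicative helicase, lies at chr1:128359706-128359865 (- strand). Rrm2, the regulated subunit of ribonucleotide reductase, lies at chr12:24708094-24708253 (+ strand).

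Ccnb2: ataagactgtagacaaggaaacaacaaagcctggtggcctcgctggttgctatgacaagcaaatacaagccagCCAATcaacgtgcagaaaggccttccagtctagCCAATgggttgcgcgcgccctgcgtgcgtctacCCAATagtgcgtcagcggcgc
Cdk1: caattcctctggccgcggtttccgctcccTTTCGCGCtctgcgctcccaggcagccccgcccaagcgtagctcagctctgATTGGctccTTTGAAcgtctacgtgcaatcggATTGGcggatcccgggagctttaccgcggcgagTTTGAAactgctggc
Cdc20: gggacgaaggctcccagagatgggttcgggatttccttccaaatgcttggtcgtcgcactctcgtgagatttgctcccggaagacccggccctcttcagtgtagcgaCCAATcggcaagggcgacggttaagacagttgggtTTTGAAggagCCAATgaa
Mcm6: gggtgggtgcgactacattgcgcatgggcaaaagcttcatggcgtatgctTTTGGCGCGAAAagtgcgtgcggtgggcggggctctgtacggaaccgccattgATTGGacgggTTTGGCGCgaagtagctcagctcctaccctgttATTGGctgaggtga
Rrm2: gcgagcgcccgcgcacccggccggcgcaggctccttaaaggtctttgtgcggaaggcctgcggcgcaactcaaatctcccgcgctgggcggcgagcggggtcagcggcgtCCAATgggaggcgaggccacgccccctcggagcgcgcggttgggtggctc

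Over windows of 300 bases (250 before to 50 after the first listed start) 32 of the 38 genes had a sequence, 18 of them mitotic and 14 of DNA replication. CHR letters stood in 14 of the 18 mitotic promoters (77.8%) and in 3 of the 14 replication promoters (21.4%), beside 19.4% of 27025 promoters of all genes. CCAAT letters stood in 16 of 18 (88.9%) and 9 of 14 (64.3%), beside 37.9% of all promoters. E2F letters stood in 1 of 18 (5.56%, Cdk1) and 6 of 14 (42.9%: Mcm3, Mcm5, Mcm6, Mcm7, Cdc6 and Cdt1), beside 2.32% of all promoters. CCAAT was thus common in both sets, and CHR and CCAAT together also stood in Mcm2, Mcm7 and Cdc45. The shares are a description and no difference between the sets was tested. These matches describe the windows and say nothing of binding in these cells. None of the 3 motifs stood in the windows of Birc5, Nusap1, Tyms, Ccne1 and E2f1.

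The mean log2 value over the 36 genes was highest in the normal controls, at 8.96 ± 0.25 (SD, n = 3). It was next highest in AE9a at P4 (8.32 ± 0.42) and in the knockout arm at P4 (8.23 ± 0.34), P1 (8.19 ± 0.39), P3 (8.13 ± 0.20) and P2 (8.09 ± 0.29). AE9a at P1 (8.08 ± 0.62), the added arm at P1 (7.94 ± 0.07), AE9a at P3 (7.86 ± 0.14) and AE9a at P2 (7.78 ± 0.16) followed. The added arm at P4 (7.77 ± 0.96), P2 (7.52 ± 0.92) and P3 (6.72 ± 0.41) stood lowest (SD, n = 3 in each). The arrays of every pair of neighbours in this order overlapped. Of the 36 leukaemia arrays 3 lay above the lowest normal array, whose mean was 8.71: AE9a P1 replicate 3, AE9a P4 replicate 1 and AE9a+miR-126 P4 replicate 3.

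**Figure D1:**
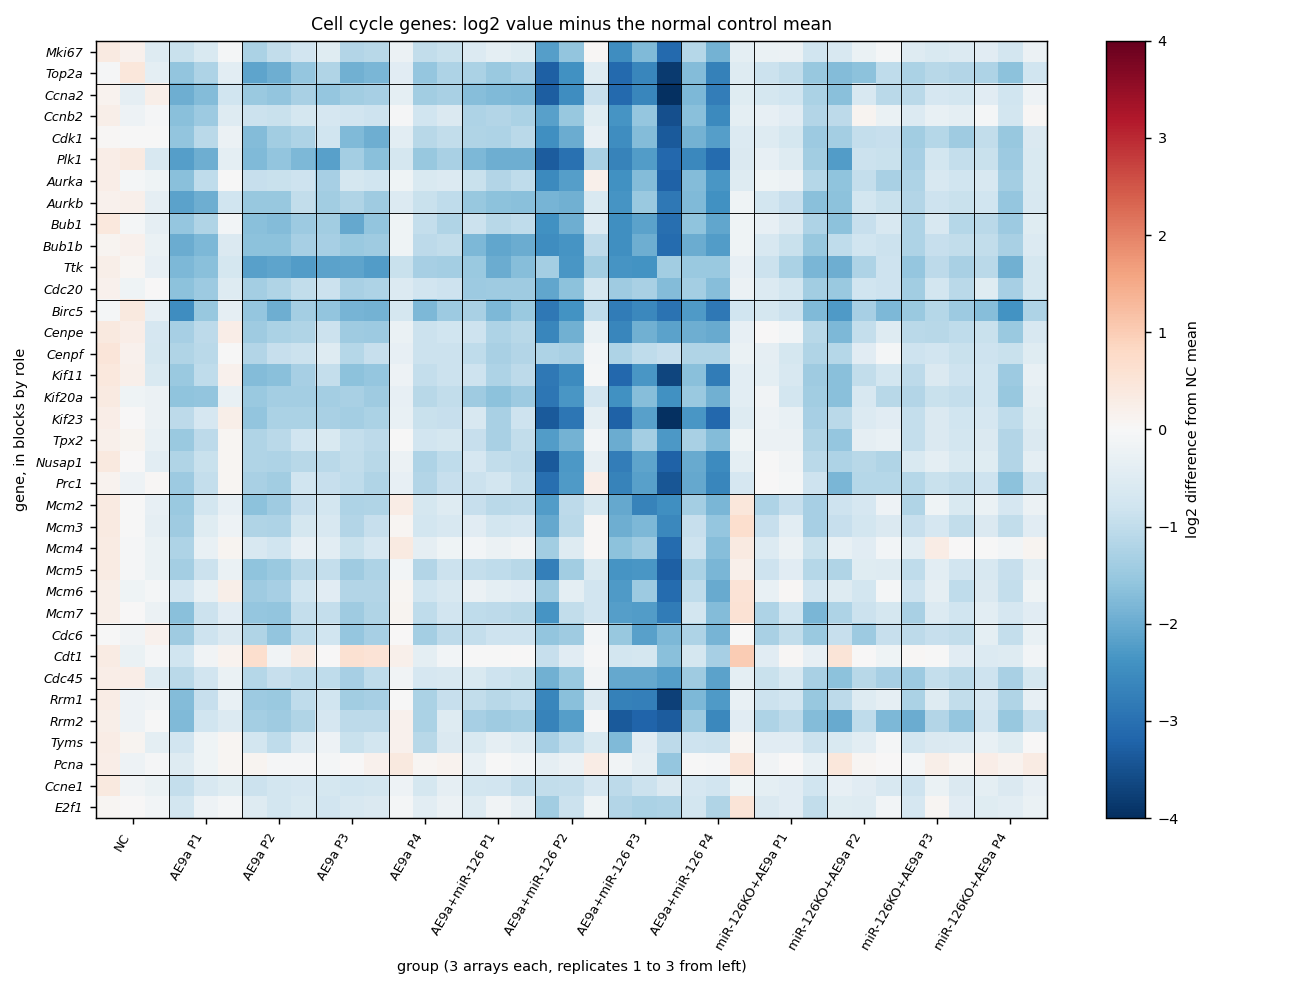
Log2 value of each of the 36 genes (in blocks by role) minus its mean over the normal controls, for every array, by group. Blue is lower and red is higher; most leukaemia arrays are blue over most genes, the palest columns among the leukaemias being single arrays of AE9a P1, AE9a P4 and AE9a+miR-126 P4, and the deepest those of added miR-126 at P3.

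The arrays also differed in spread, which bears on the whole account. The SD of the log2 values over all 27037 probe sets reached from 1.43 to 2.03 in the added arm. Its range was 1.78 to 2.04 among knockout arrays, 1.86 to 2.06 among AE9a arrays and 1.87 to 2.08 among the normal arrays. On 8 arrays it was under 1.8, namely 7 of the 9 added-miR-126 arrays of P2 to P4 and the knockout array P2 replicate 3. On an array of small spread values lie closer to each other, and a gene above the middle of its array may read lower there. Whether the members read lower for this reason was not tested. Each comparison was therefore repeated, first taking array spread into the model and then leaving these 8 arrays out, and those results are given where they change it. A comparison that holds none of the 8 arrays keeps its differences in that last fit, and only its error changes.

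For 3 members the value of each array is given. Kif23 and Rrm2 were picked as the mitotic and the replication member of smallest adjusted p (limma) in the averaged comparison of added miR-126 with AE9a. Their differences there were -1.11 and -0.99, against a median of -0.54 over the 36 members. Their separation from AE9a in the added arm follows in part from that choice. Mki67 encodes Ki-67, the usual antigen of cycling cells. It was 11.02, 10.83 and 10.14 in the normal controls, and 9.76, 10.04 and 10.59 in AE9a at P1. In the added arm Mki67 was 10.10, 10.26 and 10.17 at P1, 8.46, 9.07 and 10.70 at P2, 8.16, 8.90 and 7.54 at P3, and 9.52, 8.76 and 10.26 at P4. The low values of Mki67 in the added arm were those of its arrays of small spread, and the third replicates at P2 and P4 stood apart above them. The knockout arm kept within 9.86 to 10.59 over all 12 arrays, with a median of 10.17. AE9a ran from 9.38 to 10.59, with a median of 9.77.

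Kif23, a kinesin of the central spindle needed for cytokinesis, was 10.10, 9.85 and 9.61 in the normal controls. AE9a gave 8.80, 9.17 and 10.09 at P1, 8.26, 8.57 and 8.58 at P2, 8.55, 8.50 and 8.58 at P3, and 9.56, 8.96 and 8.93 at P4. The added arm gave 9.20, 8.55 and 9.03 at P1, 6.48, 6.96 and 9.47 at P2, 6.60, 7.69 and 5.65 at P3, and 7.51, 6.72 and 9.32 at P4. Kif23 in the added arm therefore overlapped AE9a at P1 and fell clear below it on 7 later arrays. The knockout arm gave 8.53 to 9.65, with a median of 9.23, and overlapped AE9a at all passages but P2 and P3, where its lowest array lay above AE9a's highest.

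Rrm2 was 9.38, 8.95 and 9.15 in the normal controls. AE9a gave 7.38, 8.35 and 8.60 at P1, 7.80, 7.73 and 7.96 at P2, 8.48, 8.12 and 8.11 at P3, and 9.33, 7.89 and 8.65 at P4. The added arm gave 7.83, 7.75 and 7.81 at P1, 6.49, 6.95 and 9.12 at P2, 5.80, 5.96 and 5.82 at P3, and 7.70, 6.57 and 8.71 at P4. At P3 the 3 added arrays were close together and all below the AE9a arrays. The knockout arm gave 7.91, 8.10 and 7.44 at P1, 7.14, 8.15 and 7.36 at P2, 7.16, 8.00 and 7.62 at P3, and 8.40, 7.65 and 8.20 at P4. Rrm2 was thus below the normal arrays on every knockout array.

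**Figure D2:**
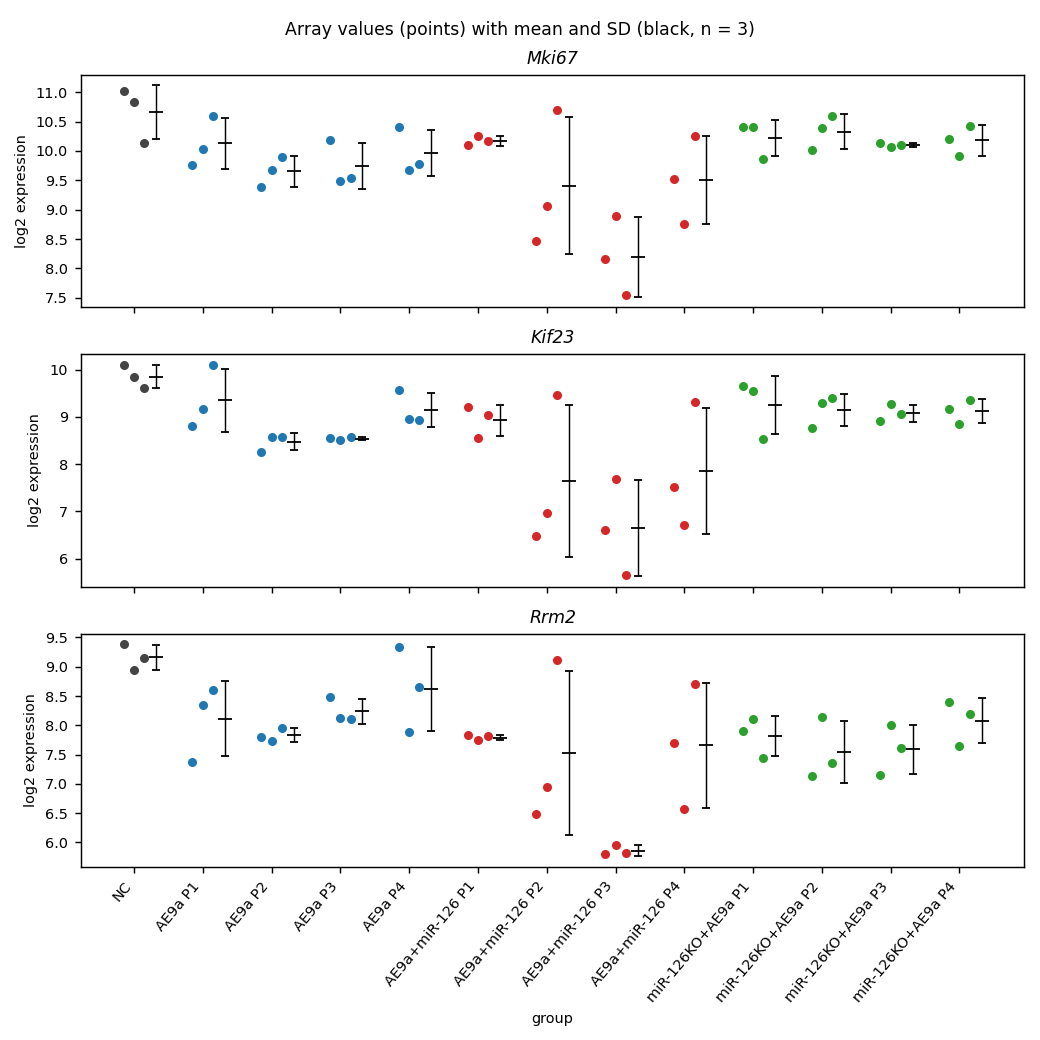
Log2 value of Mki67, Kif23 and Rrm2 on each of the 39 arrays (points, by group; n = 3) with the group mean and SD (black). The added arm at P2 and P4 splits into low arrays and 1 high array each, and at P3 Rrm2 lies between 5.80 and 5.96.

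At passage 1 some members were called lower in each leukaemia arm than in normal marrow, and most of them in AE9a and in the added arm were mitotic. In AE9a 7 of 36 were called lower and 0 higher (limma, adjusted p under 0.05 over all genes), beside 5.64% of all genes called lower. In the added arm 10 were called lower and 0 higher, beside 5.18% of genes. In the knockout arm 4 were called lower and 0 higher, beside 5.91% of genes. The median difference over members was -0.84, -1.03 and -0.75 log2, against 0.03, 0.01 and 0.02 over all genes, and the estimate of each of the 36 was below 0 in each arm, though most did not pass the test. The 3 comparisons share their control arrays.

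Among the mitotic kinases, Aurkb (Aurora B, of the chromosomal passenger complex) was 10.01, 10.04 and 9.46 in the normal arrays and 7.70, 7.89 and 9.04 in AE9a at P1. Its difference was -1.63 ± 0.42 (SE; limma adjusted p = 0.0137), and the groups did not overlap. In the added arm Aurkb was 8.30, 8.20 and 8.15, a difference of -1.62 ± 0.42 (adjusted p = 0.0120). In the knockout arm the difference was -1.11 and was not called. Ccna2, the cyclin of S phase and early mitosis, fell by 1.49 ± 0.46 in AE9a (adjusted p = 0.0396) and by 1.76 ± 0.46 in the added arm (adjusted p = 0.0127). Plk1, a kinase of mitotic entry and spindle assembly, was called in the added arm, at -1.89 ± 0.52 (adjusted p = 0.0165), with -1.51 in AE9a and -0.74 in the knockout arm. In AE9a Plk1 was called with the spread as covariate (limma adjusted p = 0.0212) and without the arrays of small spread (0.00943). Compared directly with AE9a at P1, Plk1 was not called in the added arm or in the knockout arm. The added and knockout arms were not compared with each other.

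In the spindle checkpoint, Ttk, the kinase Mps1 that starts the checkpoint, was 7.71, 7.56 and 7.14 in normal controls. At P1 it was 5.66, 5.80 and 6.78 in AE9a, and 6.62, 6.20 and 5.65 in the knockout arm. The added arrays averaged 5.76 ± 0.26 (SD, n = 3) at P1, with a lowest array of 5.49. Its differences were -1.39 ± 0.35 (adjusted p = 0.0114), -1.71 ± 0.35 (adjusted p = 0.00151) and -1.31 ± 0.35 (adjusted p = 0.0125). Over all passages the highest Ttk value was 6.78 in AE9a, 7.13 in the added arm and 6.77 in the knockout arm, so every leukaemia array was below every normal array. Bub1b, the checkpoint protein BubR1, fell by 1.46 ± 0.40 in AE9a (adjusted p = 0.0202) and by 1.95 ± 0.40 in the added arm (adjusted p = 0.00150). Cdc20 fell by 1.20 ± 0.33 (adjusted p = 0.0185) and 1.43 ± 0.33 (adjusted p = 0.00403) in those arms. In the knockout arm Bub1b and Cdc20 stood at -1.02 and -0.89 and were not called.

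Of the 9 kinetochore, spindle and cytokinesis genes, Birc5 (survivin) fell by 1.44 ± 0.46 in AE9a and 1.53 ± 0.46 in the added arm, with adjusted p = 0.0479 and 0.0319. Cenpf, a kinetochore protein, and Kif20a, a kinesin of cytokinesis, were called in the added arm, at -1.16 ± 0.33 and -1.50 ± 0.42. None of the 9 was called in the knockout arm, where their median was -0.61. The proliferation markers were not called in any arm at P1. Mki67 gave -0.53, -0.49 and -0.44 (SE 0.39), and Top2a, which untangles replicated DNA, gave -1.09, -1.36 and -1.12 (SE 0.48).

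The replication genes gave fewer calls in AE9a and in the added arm, where Ccne1, the cyclin E1 that drives entry into S phase, was the sole one of 15. Without the arrays of small spread 8 of the 15 were called in each of these arms, the same 8 genes: Ccne1, Cdc45, Cdc6, Mcm2, Mcm5, Mcm7, Rrm1 and Rrm2. With the spread as covariate 1 was called in AE9a, and these 8 in the added arm. The difference of Ccne1 on all arrays was -0.68 ± 0.18 in AE9a (adjusted p = 0.0176), -0.82 ± 0.18 in the added arm (adjusted p = 0.00337) and -0.55 ± 0.18 in the knockout arm (adjusted p = 0.0490). The knockout arm also gave Mcm7, of the helicase, at -1.30 ± 0.41 (adjusted p = 0.0349), and Cdc6, which loads the helicase on origins, at -1.26 ± 0.36 (adjusted p = 0.0206). None of the 6 MCM genes was called in the other arms, and the 6 had medians of -0.76, -0.82 and -0.85. Mcm2, of the same helicase, gave -0.85, -1.02 and -1.17 (SE 0.41) without a call. Pcna, the sliding clamp of the polymerases, was the member of smallest difference in AE9a and in the knockout arm, at -0.20 and -0.14. Cdt1, a licensing factor, took that place in the added arm, at -0.01.

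The values of the 3 arrays of a group lay wholly below the normal arrays for 15 members in AE9a at P1, 31 in the added arm and 20 in the knockout arm. The shares of all genes that did so were 15.5%, 14.8% and 14.4%. Calls at P1 rested on few arrays, and the counts with a single array left out are given without the share of all genes. In AE9a 0 members were called without AE9a P1 replicate 1 or without NC replicate 1, 1 without AE9a P1 replicate 2, 4 without NC replicate 2 and 11 without AE9a P1 replicate 3. In the added arm 5 were called without NC replicate 1 and 6 without its own replicate 2 or 3. In the knockout arm 0 were called without NC replicate 1 or its own replicate 3, 1 without its replicate 1 and 2 without NC replicate 2. With the array spread as covariate 10, 26 and 17 were called lower in AE9a, the added arm and the knockout arm, beside 8.48%, 9.61% and 9.45% of all genes. Without the arrays of small spread, none of them of P1 or NC, 21, 27 and 17 were called lower, beside 11.3%, 9.24% and 9.57%. There the differences stayed the same and only the error of the fit changed. Of the 17 in the knockout arm, 10 were replication genes with either handling of spread.

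**Figure D3:**
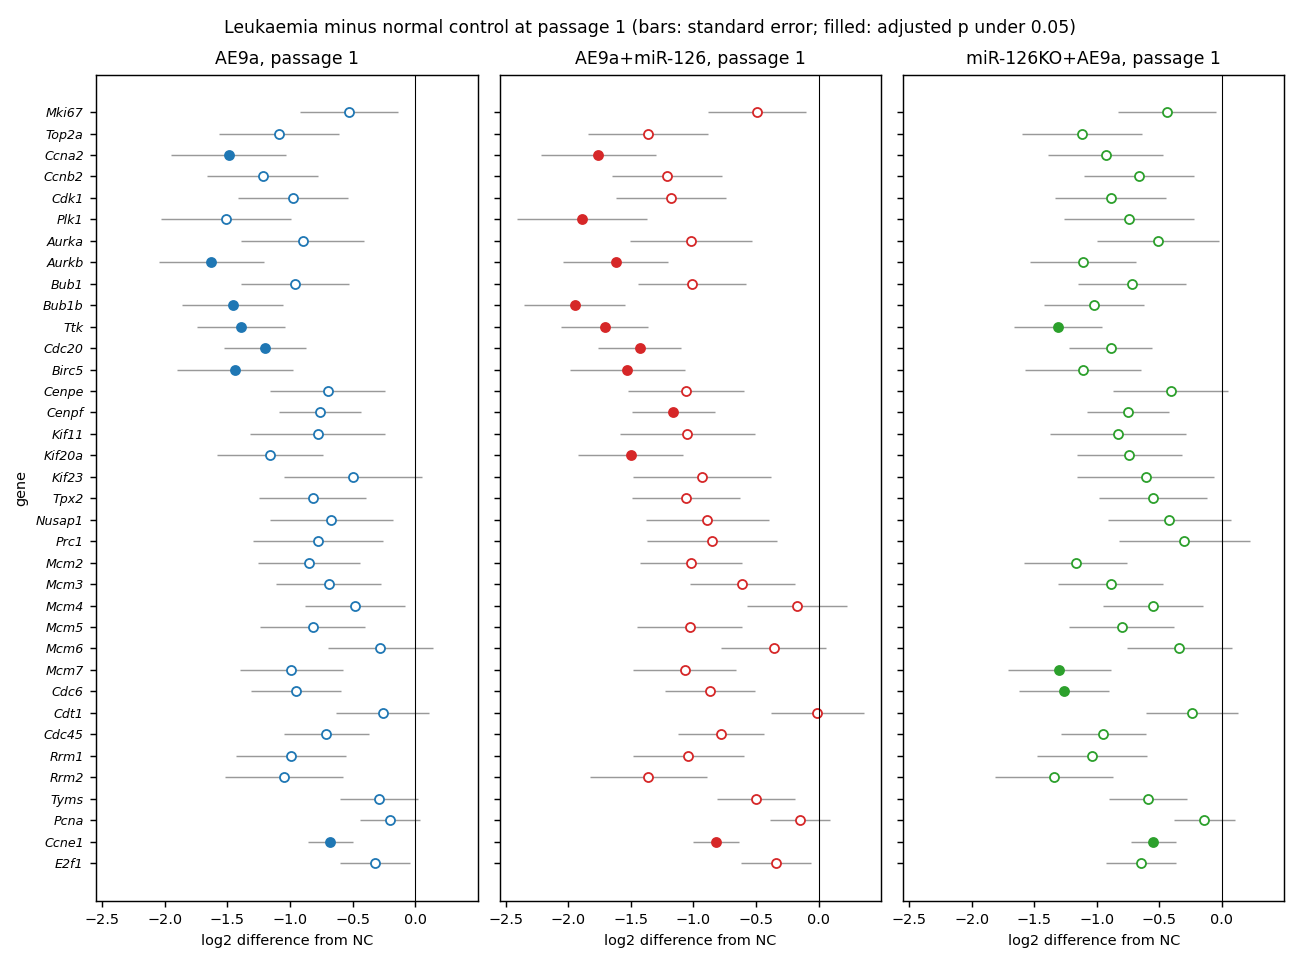
Log2 difference from the normal controls at P1 for each member (points; bars are the standard error of the fit; filled where called at adjusted p under 0.05), in 3 panels by arm. All points lie below 0 and the filled ones are mostly mitotic in AE9a and in the added arm.

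Marker genes of other marrow cells moved with this comparison. Of 11 erythroid markers measured (of 16 listed) 10, 10 and 4 were called lower in AE9a, the added arm and the knockout arm at P1, and 0 higher. Of 11 B cell markers (of 12) 7, 8 and 9 were called lower, and of 11 T and NK cell markers (of 12) 3, 5 and 8. Of 6 primary granule genes of promyelocytes 1, 1 and 5 were called lower, and of 14 mature neutrophil genes 0, 0 and 9. Of 10 monocyte and macrophage genes 2, 1 and 0 were called lower, and 0, 0 and 2 higher. Of 8 stem and progenitor genes (of 10) 2, 2 and 4 were called lower, and 0, 0 and 1 higher. The mean of the erythroid markers was 5.20 to 5.66 in the added arm over all passages. It reached 5.46 to 8.02 among AE9a arrays, 6.21 to 8.04 among knockout arrays and 7.50 to 8.22 among the normal arrays. The mean of the B cell markers was 7.53 to 8.10 in normal controls and at most 6.66 in the leukaemia arrays. Erythroid and B lymphoid precursors divide in marrow, and the part of these cells in the lower values was not tested.

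At passage 4 the comparison with the normal controls gave 1 member called lower in AE9a, beside 2.09% of genes, and 2 in the knockout arm, beside 3.63%. In both this included Ttk, at -1.19 ± 0.35 (adjusted p = 0.0474) and -1.23 ± 0.35 (adjusted p = 0.0322), and in the knockout arm Birc5, at -1.78 ± 0.46 (adjusted p = 0.0175). In the added arm 25 were called lower, beside 14.5% of genes, with Birc5 at -1.98 ± 0.46, Plk1 at -2.07 ± 0.52, Cdc45, a helicase cofactor, at -1.31 ± 0.34 and Bub1b at -1.46 ± 0.40. Here 20 of 21 mitotic members were called and 5 of 15 replication members. Mki67 fell by 1.15 ± 0.39 and Top2a by 1.66 ± 0.48 in the added arm (limma adjusted p = 0.0268 and 0.0104). In AE9a and the knockout arm Mki67 gave -0.71 and -0.48 and Top2a -1.08 and -1.23 without a call. Mcm2 was not called, at -0.31, -0.92 and -0.39 in AE9a, the added arm and the knockout arm. No member was called higher in any arm at P4, and Pcna stood at 0.20, 0.14 and 0.25 above the normal mean without a call.

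The P4 count of the added arm changed with the handling of array spread. With the spread as covariate 0 were called lower and 1, Pcna, higher at 0.67, beside 8.67% of genes higher. Without the arrays of small spread limma called 0, with 2 at an unadjusted p under 0.05, beside 9.77% of genes in either direction. That fit leaves P4 replicate 3 alone and takes its error from the spread of the other groups. Of the added arrays at P4, replicates 1 and 2 had spreads of 1.66 and 1.63 and member means of 7.52 and 6.96, and replicate 3 had 2.01 and 8.82. Without replicate 2 the count was 1, without replicate 1 it was 7, without NC replicate 1 it was 11 and without replicate 3 it was 35. The share of all genes called in these fits is not given. In AE9a the single call was lost without AE9a replicate 2 or 3 or any NC array, with the spread as covariate 7 were called, beside 4.93% of genes, and without the arrays of small spread 4, beside 4.14%. In the knockout arm both calls were lost without its replicate 1 or 2 or NC replicate 1 or 2. There 4 were called with the spread as covariate, beside 5.40% of genes, and 11 without the arrays of small spread, beside 6.93%. Leaving those arrays out takes none from AE9a or the knockout arm at P4, so it changes the error and not the differences.

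Markers of other cells moved with the P4 comparison too. In the added arm 13 of 14 mature neutrophil genes, 10 of 11 erythroid, 9 of 11 B cell, 5 of 10 monocyte and macrophage and 3 of 6 primary granule genes were called lower, and none of these lists had a gene called higher. Of 11 T and NK cell genes 9 were lower and 1 higher, and of 8 stem and progenitor genes 4 were lower and 2 higher. Ptprc, the gene of the sort marker, fell by 1.07 ± 0.28 (limma adjusted p = 0.00524). In AE9a 10 of 11 B cell, 2 of 11 erythroid, 1 of 6 primary granule and 0 of 14 mature neutrophil genes were called lower. Of its 11 T and NK cell genes 3 were called higher and 1 lower. In the knockout arm 10 of 11 B cell, 8 of 11 T and NK cell and 1 of 11 erythroid genes were called lower. So were 5 of 14 mature neutrophil and 4 of 6 primary granule genes there, while 2 of 10 monocyte and macrophage genes were called higher. Stem and progenitor genes called lower numbered 1 in AE9a and 2 in the knockout arm. Ptprc was not called in those arms, at -0.26 and -0.07. The part of these cells in the members' values was not tested.

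Between passages 1 and 4 no member was called in any arm. The median difference, P4 minus P1, was 0.21 in AE9a, -0.17 in the added arm and 0.04 in the knockout arm, beside 2.94%, 24.3% and 4.04% of genes called in either direction (limma). Not a single member reached an unadjusted p under 0.05 in any of the 3. The sign in the added arm depended on the arrays: with the spread as covariate 9 members were called higher at P4, beside 8.84% of genes, among them Bub1b at 1.48 ± 0.28 and Mcm7 at 1.30 ± 0.34. Without the arrays of small spread 10 were called higher, beside 8.53% of genes, but P4 is then replicate 3 alone, the array of highest member mean in that arm, with its error taken from other groups. Without P4 replicate 3 a total of 9 were called lower, with no share of all genes given for that fit.

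Added miR-126 was then compared with AE9a alone. Averaged over the 4 passages, 22 of 36 members were called lower and 0 higher, with a median of -0.54 against 0.08 over all genes. The share of all genes called lower was 24.3%. Of the mitotic members 16 of 21 were called and of the replication members 6 of 15. The largest fall was that of Kif23, by 1.11 ± 0.28 (SE; limma adjusted p = 0.00151), and the smallest adjusted p that of Rrm2, which fell by 0.99 ± 0.23 (adjusted p = 0.00104). Ccna2 fell by 0.90 ± 0.23, Ccnb2 by 0.84 ± 0.22, Top2a by 0.65 ± 0.24, Mki67 by 0.55 ± 0.20 and Mcm2 by 0.53 ± 0.20. Pcna, at -0.21 ± 0.12, was not called.

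By role, all but 1 of the 6 mitotic cyclins and kinases were called, all but 1 of the 9 kinetochore, spindle and cytokinesis genes, and both proliferation markers. Of the 4 checkpoint genes 1 was called, Bub1b, and Ttk was at 0.08. Of the 6 MCM genes 2 were called, Mcm2 and Mcm5, and of the 2 regulators of the G1 to S step measured, Ccne1 and E2f1, 0.

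Passage by passage, the calls came at P3. There 21 members were called lower, beside 24.8% of genes, with a median of -1.14. Rrm2 fell by 2.38 ± 0.47 log2 (a 5.20-fold difference; adjusted p = 0.000200), and Rrm1, its catalytic partner, fell by 1.88 ± 0.44 (adjusted p = 0.00104). All 6 MCM genes fell, by 1.21 to 1.44, and Mki67 fell by 1.54 ± 0.39 (adjusted p = 0.00213). Ccna2 fell by 1.89 ± 0.46, Ccnb2 by 1.72 ± 0.44, Top2a by 1.54 ± 0.48 and Pcna by 0.73 ± 0.24. For each of the 21 the 3 added arrays, all of small spread, lay below all 3 AE9a arrays. These members were picked by the call, and no share of all genes is given beside this. At P1, P2 and P4 limma called 0, 0 and 0 members, with medians of -0.16, -0.22 and -0.59, beside 0.0316%, 8.85% and 24.7% of genes called in either direction. At an unadjusted p under 0.05 these passages gave 0, 1 and 5 members. Without the third replicate of the added arm the counts were 6 lower at P2 and 23 lower at P4, and at P3, without its replicate 3, 7 lower. The added arrays left at the passage were then all of small spread, and the share of all genes called is not given for these fits. At P4 the direction turned with the spread as covariate, where Cdt1 at 0.78 and Mcm3 at 0.92 were called higher, beside 5.92% of genes. Without the arrays of small spread, with 1 added array left at P4, Cdt1 was called higher at 1.10, beside 5.29% of genes.

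The spread of the arrays moved with this difference, whose sign turned with the spread as covariate but not after quantile normalization. With the spread as covariate the median over members became 0.18. After rounding, 32 members lay above 0 and 3 below, with Kif23 at -0.0. In that fit 1 gene, Mcm3, was called higher at 0.54 ± 0.18 (limma adjusted p = 0.0456), beside 6.79% of genes. Leaving out the arrays of small spread removes added P3 and keeps 1 added array each at P2 and P4, the 2 of highest member mean in that arm. Since the arrays it keeps are those where the members were high, the sign it gives is a description. In it all 36 members lay above 0, from 0.06 to 0.76, with a median of 0.35, and Mcm3 was called at 0.76 ± 0.20 (adjusted p = 0.0313), beside 2.10% of genes higher. At P3, with the covariate, limma called 0 members, with 0 at an unadjusted p under 0.05 and a median of 0.35, beside 7.86% of genes in either direction. After quantile normalization, which gives each array the same distribution, 10 members were called lower in the average, all 10 among the 22, with a median of -0.26, beside 18.5% of genes. Of the added arrays of P2 to P4, the 7 of small spread had member means of 6.29 to 7.52 and the other 2 had 8.54 and 8.82, both above the P1 arrays of that arm (7.88 to 8.01). All 3 added arrays at P3 were of small spread, so array spread and the added miR-126 cannot be told apart there.

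**Figure D4:**
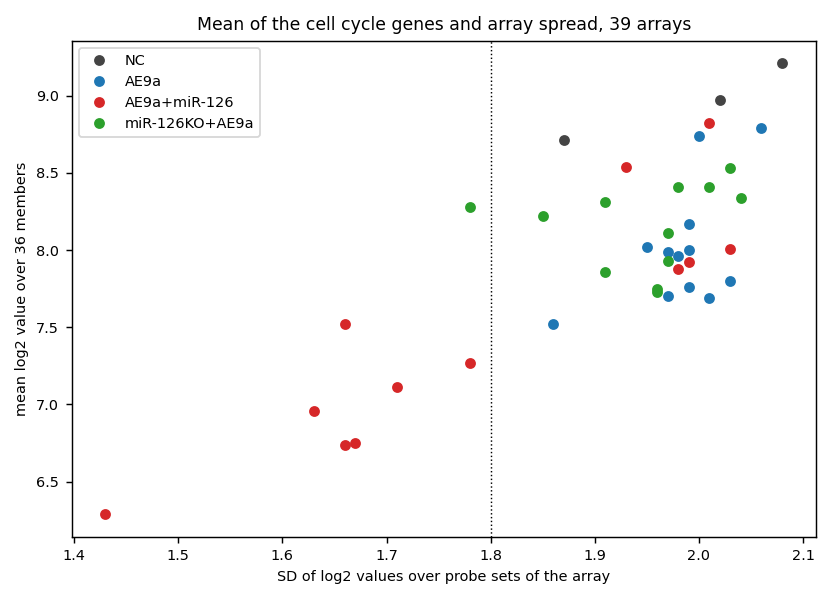
Mean log2 value over the 36 members against the SD of all probe sets, for each of the 39 arrays, coloured by arm; the dotted line marks an SD of 1.8. The 7 added arrays left of the line have member means of 6.29 to 7.52, and the knockout array left of it has 8.28.

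**Figure D5:**
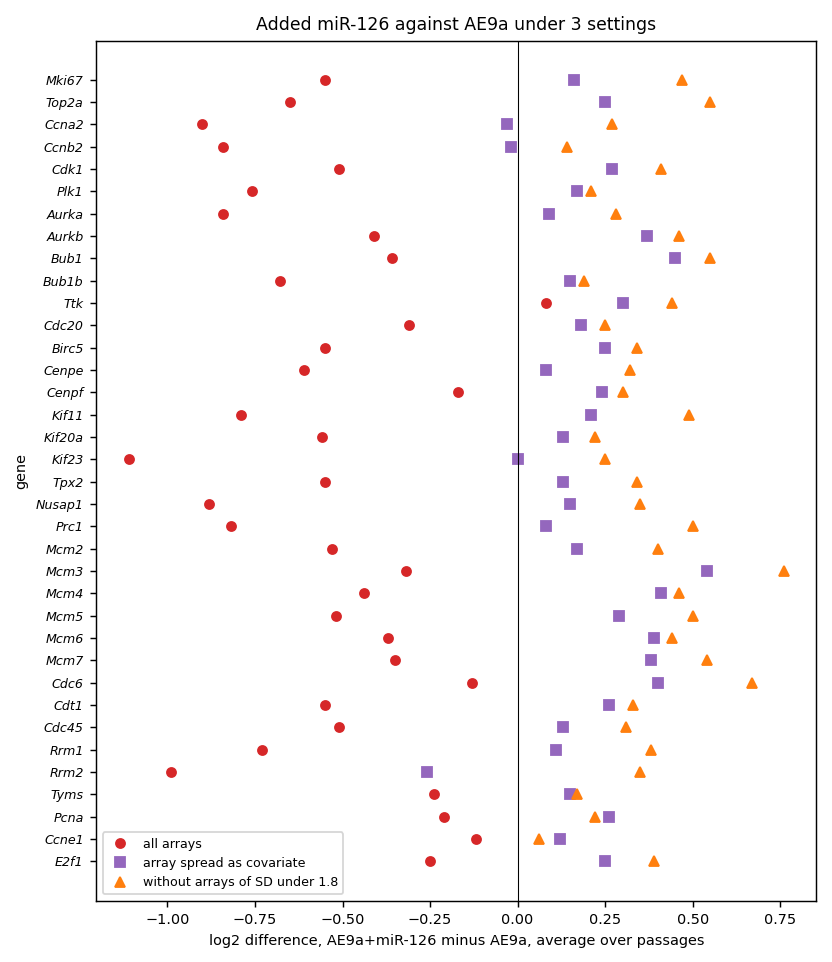
Log2 difference of AE9a+miR-126 from AE9a averaged over passages for each member, under 3 ways of handling array spread (colours). The points of the fit on all arrays lie below 0 but for Ttk, and the points without the arrays of small spread, with 1 added array each at P2 and P4, all lie above 0.

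Markers of cell type moved with the same comparison. Of 14 mature neutrophil genes 13 were called lower in the added arm on average, of 10 monocyte and macrophage genes 7, and of 11 erythroid genes 6. Of 11 T and NK cell genes 7 were called lower and 1 higher. Ptprc fell by 0.47 ± 0.14 on average, by 0.93 ± 0.28 at P3 and by 0.82 ± 0.28 at P4 (limma adjusted p = 0.00690, 0.00759 and 0.0345). Of 8 stem and progenitor genes measured, of 10 listed, 4 were called higher and 2 lower, with Myb, a transcription factor of proliferating progenitors, higher by 2.44. On the 7 added arrays of small spread Myb was 11.91 to 12.31, and on the other 2 of P2 to P4 it was 10.55 and 11.94. Most arrays low for the members were thus at the top of the range of Myb, with 1 of the other 2 among them. The part of these cells in the members' values was not tested.

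Between the knockout arm and AE9a no member was called. In the average over passages limma called 0 of 36 members, with a median of 0.16 against 0.01 over all genes, beside 8.17% of genes called in either direction. At an unadjusted p under 0.05 there were 2, Ccna2 at 0.51 ± 0.23 and Ttk at 0.43 ± 0.18. Rrm2 went the other way without a call, at -0.44 ± 0.23, and Pcna stood at 0.09 ± 0.12. At P1, P2, P3 and P4 there were 0 calls each, with medians of 0.07, 0.32, 0.32 and -0.10, beside 2.09%, 3.99%, 1.05% and 1.33% of genes. At an unadjusted p under 0.05 the passages gave 0, 1, 1 and 0 members. A missed threshold at 3 mice a group does not show that these levels are the same.

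With the spread as covariate 8 members were called higher in the knockout average, among them Plk1 at 0.69 ± 0.19, Ccna2 at 0.67 ± 0.16 and Mki67 at 0.47 ± 0.15, beside 6.65% of genes called higher in that fit. At P2 it called 8 higher, beside 2.14% of genes, among them Kif23 at 1.38 ± 0.37 and Mcm6 at 1.23 ± 0.32. Without the arrays of small spread 1 was called in the average, Ccna2 at 0.50, beside 4.36% of genes higher. At P2 limma then called 0 members, with 0 at an unadjusted p under 0.05, beside 2.26% of genes in either direction. In the knockout arm 7 of 11 erythroid markers were called higher and 13 of 14 mature neutrophil markers lower on average, and their part in these values was not tested.

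The change of each effect between P1 and P4 was tested directly. For added miR-126 limma called 0 members, with a median of -0.44, beside 10.5% of genes, and 0 members at an unadjusted p under 0.05. Without AE9a+miR-126 P4 replicate 3 it called 4, all lower, with no share of all genes given for that fit. For the knockout it called 0, with a median of -0.12, beside 0.428% of genes, and 0 members at an unadjusted p under 0.05.

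The members moved together between mice of the same group, taken over all groups at once. With group means taken out, the correlation between 2 members over the 39 arrays had a median of 0.82 over 630 pairs, from 0.03 to 0.97, and all 630 lay above 0. Over all pairs of genes the median was 0.00. The median was 0.89 among mitotic members, 0.75 among replication members and 0.76 across the 2 sets. With array spread taken out as well it was 0.66, and 613 of the 630 pairs lay above 0. The members least like the rest were Ttk, with a median correlation of 0.50, Pcna with 0.57 and Ccne1 with 0.60, and those most like it Kif11, Bub1 and Tpx2 with 0.90. The pairs share their arrays and their spread, and the values describe these arrays. Groups whose arrays differ most weigh most in these correlations. The SD of the member mean was 0.96 in the added arm at P4 and 0.92 at P2, and at most 0.62 in any other group. No correlation is given for single groups.

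Other genes of the cell cycle were read from lists of 107 symbols, of which 101 were measured. At P1 against normal controls 5.64%, 5.18% and 5.91% of all genes were called lower in AE9a, the added arm and the knockout arm. Of 27 other replication genes 6, 5 and 9 were called lower there, and 0 higher. Of 36 other mitotic genes 8, 16 and 3 were called lower and 0 higher. No difference between the arms in these counts was tested. Of 11 genes of DNA damage checkpoints and repair 3, 6 and 5 were lower. Tk1, the thymidine kinase of S phase, fell by 1.46 ± 0.25, 1.43 ± 0.25 and 1.58 ± 0.25. Of the inhibitors and pocket proteins, Cdkn1a, which encodes the p21 inhibitor of cyclin-dependent kinases, was higher by 2.62, 3.51 and 3.82 (SE 0.31), with values of 10.14, 11.03 and 11.34 against 7.52. Cdkn2c, the p18 inhibitor of CDK4 and CDK6, fell by 1.70, 1.87 and 1.45 (SE 0.36). Cdk6 was called higher in the added and knockout arms, by 1.13 and 1.12 (SE 0.34), and stood at 0.76 in AE9a without a call.

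Between added miR-126 and AE9a, averaged over passages, 7 of 11 other E2F and mitotic transcription factors were called lower and 0 higher. E2f2 fell by 1.25 ± 0.16, E2f8 by 1.28 ± 0.24 and Foxm1 by 0.49 ± 0.18 (limma adjusted p = 3.48e-07, 9.80e-05 and 0.0260). Of 36 other mitotic genes 12 and of 27 other replication genes 6 were called lower, beside 24.3% of all genes. Tk1 was at 0.13 and Cdkn1a at -0.28, neither called. Cdk6 was higher by 1.10 ± 0.17. The low-spread arrays enter these values as they enter those of the members.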

How the data were processed

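RNA of sorted donor marrow cells was measured on Affymetrix Mouse Gene 2.0 ST arrays, 1 array per mouse. The deposited values are log2 expression values, made by the authors with RMA and Partek 6.0 per the submitters' processing notes; RMA brings arrays to 1 distribution of probe intensities, yet the deposited arrays still differed in spread. Of background settings, filters and batch steps nothing more was stated. The number of arrays limits the precision.

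Groups and replicate numbers came from the titles. Of 27037 probe sets 23521 carried 1 symbol, 1814 several and 1702 none; those with 1 symbol were used, with the probe set of highest mean for each gene, which left 22180 genes. All 39 arrays entered 1 model of 13 group means in limma 3.58.1 (R 4.3.3) with 26 residual degrees of freedom. Adjusted p is Benjamini-Hochberg over all genes, and a member was called under 0.05. In all 21 comparisons were made. A ± after a difference is its standard error, and no arrays held identical values (0 pairs).

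The members and lists were chosen with earlier results of these data known. By rule, the genes named in each comparison with a call were up to 4 members of smallest adjusted p in each direction and Mki67, Top2a, Mcm2 and Pcna; other members were named after their values were seen. Mki67, Kif23 and Rrm2 were shown on every array. Kif23 and Rrm2 were taken for having the smallest adjusted p among mitotic and replication members in the added average.

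The replicate numbers were checked as pairs in 17 comparisons: the correlations of same-numbered arrays ran from -0.37 to 0.30, and in 1 comparison (knockout against AE9a at P2) all 3 exceeded 0.1. The fit was checked on simulated data for AE9a P1 against NC alone. Genes there varied independently, each with the same variance in every group. That check does not bear on array spread or on genes that move together. Alternatives are given in the closing section.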

Additional observations from a re-analysis of the deposited data

How the results depend on the processing

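Counts of members called lower, unless stated, and without shares of all genes, follow for each alternative that moved them by over 1.5 times. With array spread as covariate they were 26 (added P1 against NC), 17 (knockout P1), 7 (AE9a P4) and 4 (knockout P4). The added arm then gave 1 higher at P4 against NC, 9 higher at P4 against P1, 1 higher in its average, 0 at P3 and 2 higher at P4 against AE9a. The knockout gave 1 higher at P4 against P1, 8 higher in its average and 8 higher at P2. Without arrays of SD under 1.8 the counts were 21, 27 and 17 at P1 against NC (AE9a, added, knockout) and 4, 0 and 11 at P4. They were 10 higher for added P4 against P1, and 1 higher each for the added average, the knockout average and added P4 against AE9a; added P3 had no array left. Quantile normalization gave 16 and 9 (added and knockout P1 against NC), 0 (AE9a P4), 3 higher (added P4 against P1) and 10 (added average). The compared groups alone gave 14, 27 and 17 at P1 and 3, 3 and 11 at P4 against NC, and 1 higher each for knockout P4 against P1 and the knockout average. Signs turned in the added average with the covariate (median 0.18, Mcm2 0.17, Mki67 0.16, Top2a 0.25) and at P3 (median 0.35, Mcm2 0.07, Pcna 0.21, Top2a 0.26). They also turned in the average without the arrays of small spread (median 0.35, Ccna2 0.27, Ccnb2 0.14, Kif23 0.25, Mcm2 0.40, Mki67 0.47, Rrm2 0.35, Top2a 0.55). The cause was not tested. Leaving out 1 array gave 0 to 11, 5 to 9 and 0 to 4 at P1 against NC, 0 to 1, 1 to 35 and 0 to 2 at P4, and 0 to 9 for added P4 against P1. For the added arm against AE9a it gave 13 to 30 in the average, 0 to 0 at P1, 0 to 6 at P2, 7 to 25 at P3, 0 to 23 at P4 and 0 to 4 for the change of effect. The averages fell to 13 without added P2 replicate 1 or P4 replicate 2, and to 14 without AE9a P1 replicate 3 or P4 replicate 1. All other comparisons stayed at 0. The replicate number as a block, over numbers that pair no samples by the labels, gave 21 in the added average and 3 for knockout P1, where Ccne1 passed to a limma adjusted p of 0.0594; 58 of 59 named results kept their side. For knockout against AE9a at P2 it left 0 called. The dim-gene filter, the mean of probe sets and the trended, robust prior moved no count by over 1.5 times.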
